A study of Rattus norvegicus with 24 samples.

Results

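Testes of rat fetuses exposed to dibutyl phthalate (DBP) through the dam were compared with testes of fetuses of oil-treated dams on gestational day 20 (GD20). The comparison takes the 4 arrays titled as DBP testis and the 4 titled as oil testis at GD20, 8 of the 24 samples of the series, and describes 31042 probe sets, of which 1 probe set each stands for 14217 genes. The animals were male Fisher 344 rats, an inbred strain, with no genetic modification. Dams of the DBP group were gavaged with 50 mg/kg DBP in corn oil once a day from GD12 to GD20, and dams of the oil group with corn oil on the same days. Fetuses of DBP dams were taken 6 hours after the last dose. Every DBP dam had both the final gavage and the days of dosing before it, so responses to these cannot be told apart. The oil group has no stated interval, so whether time since gavage differed between the groups is not known. The oil arrays carry dams 2, 3, 4 and 5, and the DBP arrays dams 16, 18, 19 and 21. For oil dam 2 the label marks the RNA as pooled, and how many fetuses the other arrays stand for was not stated. Testes were freed of the tunica, the outer capsule, and snap frozen, so RNA of all remaining cell types was measured together on Affymetrix Rat230_2 arrays, which hold short probes for rat transcripts.

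DBP is a plasticizer that is known from earlier work to disturb the developing male reproductive tract. In the fetal testis, Leydig cells between the cords make testosterone and insulin-like 3, while Sertoli cells in the cords make anti-Müllerian hormone and surround the gonocytes, the fetal germ cells. In rats, high fetal doses of such phthalates are known for low testicular testosterone, low transcripts of the steroidogenic pathway and multinucleated gonocytes.

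The defining transcripts of these cells were bright on all 8 arrays. On the 4 oil arrays the mean intensity was 14833 ± 621 for Amh, the anti-Müllerian hormone of Sertoli cells, and 15317 ± 387 for Cyp17a1, a steroidogenic enzyme of Leydig cells (SD, n = 4). Piwil2, a germ cell protein of the piRNA pathway, was at 842 and Acta2, the smooth muscle actin of peritubular cells, at 2644 ± 300. The adrenal enzyme Cyp21a1 was at 18.6 and the kidney protein Umod at 20.0, near the low end of the scale. Spread was wider in the DBP group. Between pairs of arrays, log2 differences had a standard deviation of 0.210 to 0.228 among oil arrays and 0.266 to 0.365 among DBP arrays. The poly-A spike-ins, control RNAs of bacterial genes mixed in ahead of the labelling step, had a mean log2 intensity of 6.33 on the DBP array of dam 19 and 6.23 on that of dam 21, and 7.74 to 8.33 on the other 6 arrays. The hybridization spike-ins, added after labelling, lay between 10.78 and 11.57 on all 8 arrays.

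In all, 137 probe sets passed an adjusted p of 0.05 in the limma fit (0.441% of those tested), 65 of them higher and 72 lower after DBP, and 3652 had an unadjusted p under 0.05. At the level of genes, 80 of 14217 were called, which is 0.563%, with 44 higher (0.309%) and 36 lower (0.253%). For each of these 80 genes the 4 DBP arrays lay beyond all 4 oil arrays, and the same holds for 8.45% of all genes. Changes were small, since only 10 of the 80 genes reached 2-fold on the log2(intensity + 16) scale used throughout, which understates the change of dim genes. The split of calls moved with the scaling of the arrays. Higher calls were 47.4% of all calls with arrays as deposited, 67.8% with each array centred on its median and 61.3% with each centred on its 75th percentile. The number of called probe sets also hung on single arrays, with 42, 41, 36 and 29 left without oil dam 2, 3, 4 or 5 and 74 without DBP dam 16. No called gene changed sign in any of 21 alternative analyses. Since the 2 groups do not overlap in these genes, fits that leave out arrays could not turn a sign.

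**Figure D1:**
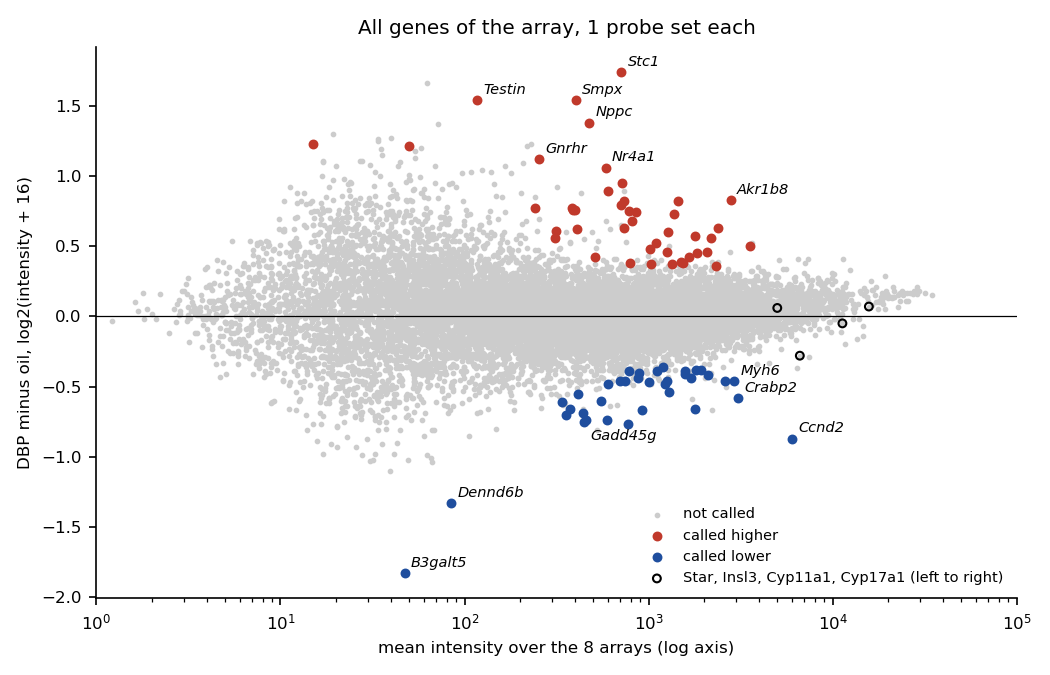
Each point is 1 gene, with its mean intensity over the 8 arrays on a log axis and its difference between DBP and oil on the log2(intensity + 16) scale. The 44 genes called higher lie at 0.36 and above and the 36 called lower at -0.36 and below, while the open circles of Star, Insl3, Cyp11a1 and Cyp17a1 lie between -0.28 and 0.07.

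Hormones, their receptors and the cyclic nucleotide pathway held several of the larger rises. Stc1, stanniocalcin 1, is a secreted glycoprotein hormone that acts locally in many tissues. Its intensity was 331, 305, 311 and 278 on the oil arrays of dams 2, 3, 4 and 5 and 1027, 721, 957 and 1763 on the DBP arrays of dams 16, 18, 19 and 21, the order in which all array values are given below. All DBP arrays were more than 2 times the highest oil array, and dam 21 was the highest. The difference was 1.74 ± 0.20 on the log2 scale (moderated SE, limma, adjusted p = 0.00323), and 1.45 (adjusted p = 0.00406) without dams 19 and 21. Nppc encodes C-type natriuretic peptide, which raises cyclic GMP through its receptor. It was at 379, 289, 157 and 229 after oil and at 562, 700, 692 and 787 after DBP. The groups did not overlap, although the oil arrays themselves ranged widely, and the difference was 1.38 ± 0.20 (adjusted p = 0.0143), or 1.27 (adjusted p = 0.0753) without dams 19 and 21. Ramp1, the partner protein that makes the calcitonin receptor-like receptor a receptor for calcitonin gene-related peptide, was at 537, 552, 464 and 500 after oil and at 812, 879, 954 and 951 after DBP. It was even among the DBP arrays and differed by 0.79 ± 0.08 (adjusted p = 0.00203).

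Gnrhr, the receptor of gonadotropin-releasing hormone, which rat Leydig cells also carry, was at 161, 140, 163 and 147 after oil and at 385, 270, 321 and 445 after DBP. Its lowest DBP array, dam 18, was still well above the highest oil array, and the difference was 1.12 ± 0.15 (adjusted p = 0.0077). Nr4a1, an orphan nuclear receptor that cyclic AMP induces in Leydig cells, was at 437, 375, 360 and 294 after oil and at 623, 829, 583 and 1180 after DBP. The array of dam 21 was the highest and that of dam 19 the lowest of the 4 DBP arrays, and the difference was 1.06 ± 0.19 (adjusted p = 0.0382). Its relatives Nr4a3 (0.71 ± 0.27, adjusted p = 0.338) and Nr4a2 did not pass. Pde4b, which breaks down cyclic AMP, was at 243, 257, 246 and 248 after oil and at 369, 405, 353 and 365 after DBP. Both groups were even and did not overlap, and the rise was 0.56 ± 0.09 (adjusted p = 0.0291). Prkar2b, a regulatory subunit of protein kinase A, was at 1272 to 1540 after oil and at 1792 to 2051 after DBP (0.42 ± 0.07, adjusted p = 0.0342). Of 83 measured peptide hormones and receptors 4 rose and 0 fell, with a median difference of 0.04, and of 65 cyclic nucleotide enzymes and effectors 2 rose and 0 fell, with a median of -0.01. Over all genes 0.309% rose and 0.253% fell, and the median was 0.02. In fits that left out 1 of the 8 arrays in turn, Stc1, Ramp1 and Gnrhr kept their calls each time, while Nppc lost its call in 1 fit, Nr4a1 in 6, Pde4b in 6 and Prkar2b in 7.

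**Figure D2:**
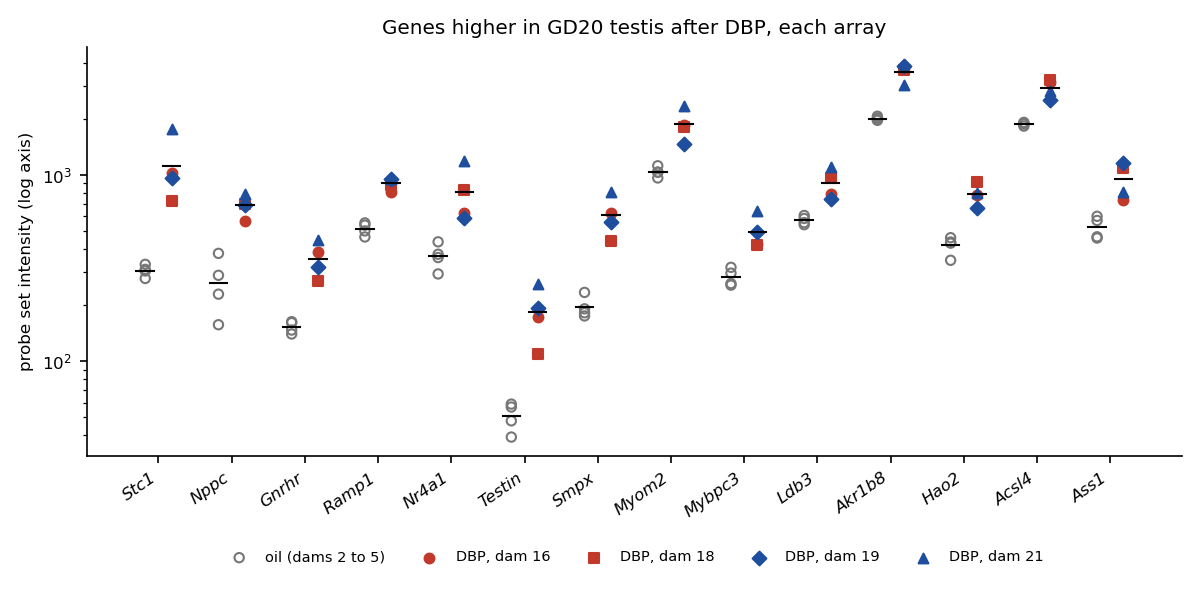
Intensity of 14 genes called higher after DBP, on a log axis, with open grey circles for the 4 oil arrays, filled marks for the DBP arrays (red for dams 16 and 18, blue for dams 19 and 21) and a bar at each mean. For every gene shown the DBP marks lie above all oil circles; for Stc1 the oil arrays span 278 to 331 and the DBP arrays 721 to 1763.

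Promoter windows of Nppc, Gnrhr and Nr4a1 are shown because these called genes sit in the cyclic nucleotide and gonadotropin pathways, and that of B3galt5 because it had the largest fall. Each holds the 250 bases before the RefSeq transcription start in the GRCr8 assembly, 5′ to 3′ on the gene's strand, with motif matches on either strand in capitals. They lie at chr9:94772187-94772436 for Nppc (minus strand), chr14:22211416-22211665 for Gnrhr (plus strand), chr7:134259888-134260137 for Nr4a1 (plus strand) and chr11:49093945-49094194 for B3galt5 (plus strand).
Nppc: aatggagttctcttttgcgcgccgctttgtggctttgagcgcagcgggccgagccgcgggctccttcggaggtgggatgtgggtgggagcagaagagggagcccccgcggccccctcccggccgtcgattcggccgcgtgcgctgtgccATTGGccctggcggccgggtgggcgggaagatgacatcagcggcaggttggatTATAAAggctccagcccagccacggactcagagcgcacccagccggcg
Gnrhr: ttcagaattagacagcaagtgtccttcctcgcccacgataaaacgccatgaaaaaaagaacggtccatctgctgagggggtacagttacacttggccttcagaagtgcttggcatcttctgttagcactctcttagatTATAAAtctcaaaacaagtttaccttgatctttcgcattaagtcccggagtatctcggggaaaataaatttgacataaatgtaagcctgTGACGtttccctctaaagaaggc
Nr4a1: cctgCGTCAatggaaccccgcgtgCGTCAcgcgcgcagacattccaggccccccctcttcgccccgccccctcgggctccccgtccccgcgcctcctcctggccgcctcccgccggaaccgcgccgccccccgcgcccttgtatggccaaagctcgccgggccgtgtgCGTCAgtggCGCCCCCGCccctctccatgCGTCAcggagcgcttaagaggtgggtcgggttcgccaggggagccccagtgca
B3galt5: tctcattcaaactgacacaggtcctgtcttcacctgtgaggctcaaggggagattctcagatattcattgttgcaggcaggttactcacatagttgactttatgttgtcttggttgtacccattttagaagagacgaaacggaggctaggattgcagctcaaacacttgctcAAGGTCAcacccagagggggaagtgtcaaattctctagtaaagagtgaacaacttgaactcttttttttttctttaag
The letters searched, on both strands, were the cyclic AMP response element TGACGTCA, its core TGACG, which the full element contains, the AP-1 site TGANTCA, the NR5A1 and NR4A1 site AAGGTCA, the PPAR direct repeat DR1, which can overlap that site, the Egr site GCGNGGGCG, the TATA box TATAAA and the CCAAT box. Nr4a1 holds 4 cores of the cyclic AMP element and 1 Egr site, and Gnrhr 1 such core and 1 TATA box. Nppc has a TATA box that begins 48 bases before the start and a CCAAT box, and B3galt5 the NR5A1 site 78 bases before it. Windows were found for 36 of the 44 higher genes, 28 of the 36 lower genes and 11733 of all 14217 genes. The cyclic AMP core was in 19.4% of the higher genes, 28.6% of the lower genes and 25.8% of all genes, and the full element in 0 of the 36 and 0 of the 28 against 2.64% of all. The NR5A1 site was in 5.56% of the higher, 7.14% of the lower and 2.76% of all genes, which is 2 genes in each called group. For the other motifs the shares in higher, lower and all genes were 5.56%, 3.57% and 4.84% (AP-1), 5.56%, 14.3% and 8.10% (Egr), 11.1%, 7.14% and 8.06% (TATA) and 30.6%, 25% and 35.1% (CCAAT), and the PPAR repeat was in none of the called genes and 0.0341% of all. These matches describe letters in the windows and not binding.

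Transcripts of steroid hormone synthesis showed no call in either direction. Of 16 measured genes of the pathway 0 passed, with a median difference of 0.12. An unadjusted p under 0.05 was found for 3 (18.8%, against 13.1% of all genes), and all 3 of these were higher. Star, which carries cholesterol into mitochondria, was at 5270, 5162, 4544 and 4474 after oil and at 6000, 6331, 4016 and 4251 after DBP. The DBP arrays lay on both sides of the oil range, dams 16 and 18 above it and dams 19 and 21 below it, and the difference was 0.06 ± 0.14 (adjusted p = 0.909). With dams 16 and 18 as the only DBP arrays Star was at 0.34 (adjusted p = 0.11), and with dams 19 and 21 as the only ones at -0.23 (adjusted p = 0.158). Cyp11a1, the side-chain cleavage enzyme, overlapped fully (-0.05 ± 0.08), and so did Cyp17a1 (0.07 ± 0.09), which was at 19058 on the array of dam 19 and at 14871 to 15463 on the other 3 DBP arrays. The smallest p values in the list were those of Fdx1, the electron donor of the mitochondrial steps, at 0.31 ± 0.08 (adjusted p = 0.143), Hsd17b3, which makes testosterone, at 0.27 ± 0.08, Cyb5a at 0.21 ± 0.08 and Hsd3b1 at 0.25 ± 0.13. The list's median was 0.22 on dam 19, 0.09 on dam 21, 0.03 on dam 18 and 0.01 on dam 16. Without dams 19 and 21 it was 0.05 with 0 calls, and with those 2 as the only DBP arrays 4 members were called higher.

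Among regulators and hormones of Leydig cells, 2 of 23 genes rose, Gnrhr and Nr4a1 as above, and 0 fell, against 0.309% and 0.253% of all genes. At an unadjusted p under 0.05, 3 were higher and 5 lower (34.8%, against 13.1% of all genes). A difference above 0 was seen in 39.1%, against 54.1% of all genes, and the list's median was -0.05. Insl3, a hormone of Leydig cells that guides descent of the testis, was at 6862, 7531, 7149 and 7483 after oil and at 5122, 5635, 6296 and 7022 after DBP. The first 3 DBP arrays lay below all oil arrays and dam 21 lay inside the oil range. The difference was -0.28 ± 0.09 (adjusted p = 0.265), but without dams 19 and 21 it was -0.43 ± 0.07 and passed (adjusted p = 0.0344). Spike-in class as a covariate gives the same difference of -0.43 by construction, with an SE of 0.08 (adjusted p = 0.0521). The luteinizing hormone receptor Lhcgr (-0.15 ± 0.07, adjusted p = 0.408) and the steroidogenic factor Nr5a1 (0.02 ± 0.10) did not pass. Fewer cells of a type and less RNA per cell cannot be told apart in such whole-tissue values.

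Of 27 measured Sertoli cell genes 1 rose and 0 fell, with a median of 0.14, while over all genes 0.309% rose and 0.253% fell. At an unadjusted p under 0.05, 8 of the list were higher and 3 lower (40.7%, against 13.1% of all genes). Without dams 19 and 21 the median was 0.00, with 0 higher and 1 lower call, and with those 2 as the only DBP arrays it was 0.19, with 5 higher and 1 lower. Testin, a protein that Sertoli cells secrete, was at 58.9, 56.8, 39.2 and 47.9 after oil and at 173, 109, 193 and 260 after DBP. The groups were far apart, with dam 18 the lowest of the DBP arrays, and the difference was 1.54 ± 0.24 (adjusted p = 0.0189). Without dams 19 and 21 it was 1.22 (adjusted p = 0.0758), and the call was lost in 6 of the 8 fits without 1 array. Inhbb, the beta B subunit of activin B and inhibin B, was at 4860, 4877, 5075 and 5166 after oil and at 3512, 4258, 4037 and 4115 after DBP. All DBP arrays lay below the oil arrays, yet the difference of -0.33 ± 0.07 did not pass (adjusted p = 0.084). It did pass in 5 of the alternatives, among them quantile normalization (-0.38, adjusted p = 0.0344). Amh was at 14408 to 15732 after oil and at 14349, 12848, 18321 and 19396 after DBP, below the oil range on dams 16 and 18 and above it on dams 19 and 21. The difference was 0.11 ± 0.12 over all arrays (adjusted p = 0.782), -0.13 without dams 19 and 21 and -0.02 after quantile normalization, and with those 2 as the only DBP arrays it was 0.35 (adjusted p = 0.0317). Inhba, the beta A subunit (-0.14 ± 0.08), and Dhh, the Sertoli cell ligand of the hedgehog pathway (-0.08 ± 0.12), overlapped between the groups. The summed intensity of the Sertoli list was 82318 to 85706 on the oil arrays, 77792 and 84640 on dams 18 and 16, and 97164 and 97837 on dams 19 and 21.

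None of 17 measured genes of gonocytes and spermatogonia passed in the limma fit. An unadjusted p under 0.05 was found for 1 (5.88%, against 13.1% of all genes), Tex101, a germ cell surface protein (0.40 ± 0.11, adjusted p = 0.197). Kit, the stem cell factor receptor, was at 267 to 283 after oil and at 257, 328, 169 and 209 after DBP, lowest on dams 19 and 21. Its difference was -0.21 ± 0.17 over all arrays and 0.08 without those 2 arrays. The summed level of the list was 8622 to 8830 on oil arrays and 8887 to 9513 on DBP arrays. None of 19 spermatocyte genes passed either, the smallest p being that of Sycp3, a protein of the meiotic chromosome axis (0.35 ± 0.08, adjusted p = 0.115). The median of the spermatocyte list was 0.14, and 0.03 without dam 21. It was 0.28 on dam 21 and at most 0.05 on each other DBP array. Its summed level was 13238 to 14363 on oil arrays, 14655, 13727 and 13760 on dams 16, 18 and 19, and 17625 on dam 21.

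Genes of muscle fibres held 4 of the 44 rises. Smpx, a small protein of the sarcomere's edge, was at 234, 191, 175 and 182 after oil and at 626, 441, 561 and 809 after DBP. Each DBP array was far above the oil arrays, and the difference was 1.54 ± 0.16 (adjusted p = 0.00203). Myom2, a myomesin of the M band, was at 962 to 1118 after oil and at 1856, 1799, 1466 and 2330 after DBP, a rise of 0.82 ± 0.11 (adjusted p = 0.00949). Mybpc3, the cardiac myosin-binding protein C, was at 256, 261, 297 and 319 after oil and at 427, 422, 493 and 640 after DBP (0.76 ± 0.13, adjusted p = 0.0342), and differed by 0.56 (adjusted p = 0.0758) without dams 19 and 21. Ldb3, a Z-disc protein, was at 554, 540, 583 and 605 after oil and at 791, 956, 742 and 1107 after DBP (0.63 ± 0.11, adjusted p = 0.0381), and both genes were highest on dam 21. Of the other 5 probe sets of Ldb3, 4 had the same sign and 0 were called. Myh6, the alpha heavy chain of cardiac myosin, fell by 0.46 ± 0.09, from 3134 to 3674 on oil arrays to 2072 to 2780 on DBP arrays. So 4 of 65 measured sarcomere and striated muscle genes rose, 1 fell and 60 did not pass, with a median of 0.17. Over all genes 0.309% rose and 0.253% fell. At an unadjusted p under 0.05, 9 of the list were higher and 3 lower (18.5%, against 13.1% of all genes). Without dams 19 and 21 the median was 0.06, with 3 higher and 0 lower calls.
Most of the other genes that define striated muscle were dim and did not pass, such as the skeletal actin Acta1 (7.13 to 82 on oil arrays, 28 to 63.2 on DBP arrays, 0.48 ± 0.42), the muscle creatine kinase Ckm (means of 27.4 and 60.6), Mb, the myoglobin gene (18.2 and 17.4), and the myogenic factor Myod1 (6.82 and 4.82). The summed level of the list was 16973 to 18240 on oil arrays and 18297 to 20416 on DBP arrays. Smpx kept its call in every fit without 1 array, Myom2 lost it in 2, Mybpc3 in 6, Ldb3 in 6 and Myh6 in 7.

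Other cell types of the gonad gave no calls. Of 19 peritubular and smooth muscle genes 0 passed, though 5 had a higher and 1 a lower value at an unadjusted p under 0.05 (31.6% of the list, against 13.1% of all genes) and the median was 0.13. Acta2 was at 2196 on oil dam 2 and 2752 to 2828 on the other oil arrays, and at 3106, 3240, 3511 and 2888 after DBP. The groups did not overlap and the difference was 0.27 ± 0.09 (adjusted p = 0.262). Myl9, a regulatory light chain of myosin (0.30 ± 0.09), Tpm2, a tropomyosin (0.25 ± 0.08), and Myocd, a coactivator of smooth muscle genes (-0.62 ± 0.17), did not pass either. Of 24 endothelial genes 0 passed, with Sox18, an endothelial transcription factor, at -0.46 ± 0.09 (adjusted p = 0.0561). Of 29 macrophage and leukocyte genes 0 passed, with a median of 0.12, led by Cd74, the invariant chain of class II molecules (0.37 ± 0.10). Of 21 blood cell genes 0 passed, and the median of 0.28 was made up of 0.43 and 0.34 on dams 16 and 18 and -0.11 and -0.06 on dams 19 and 21, with -0.19 to 0.27 on the oil arrays. Hbb, the beta globin, was at 24713 to 28433 after oil and at 28727, 22619, 34146 and 38461 after DBP (0.21 ± 0.15). With dams 19 and 21 as the only DBP arrays it was called higher (0.46, adjusted p = 0.0268), and without them it was at -0.05, while 2 other members of the list were then called higher and the median was 0.39.
Lists of tissues that a dissection might carry along were also without calls. They were adrenal and kidney (17 genes, median -0.03), duct epithelium (18 genes, -0.11), nerve and Schwann cells (19 genes, 0.01) and adipose tissue (10 genes, 0.00). The smallest p in each was that of Mrap, an adrenal accessory protein of the melanocortin receptor (-0.63 ± 0.13, adjusted p = 0.0697), Foxj1 of ciliated cells (0.33 ± 0.23), Sox10 of Schwann cells (1.07 ± 0.34) and Cidea of fat droplets (0.38 ± 0.13).

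**Figure D3:**
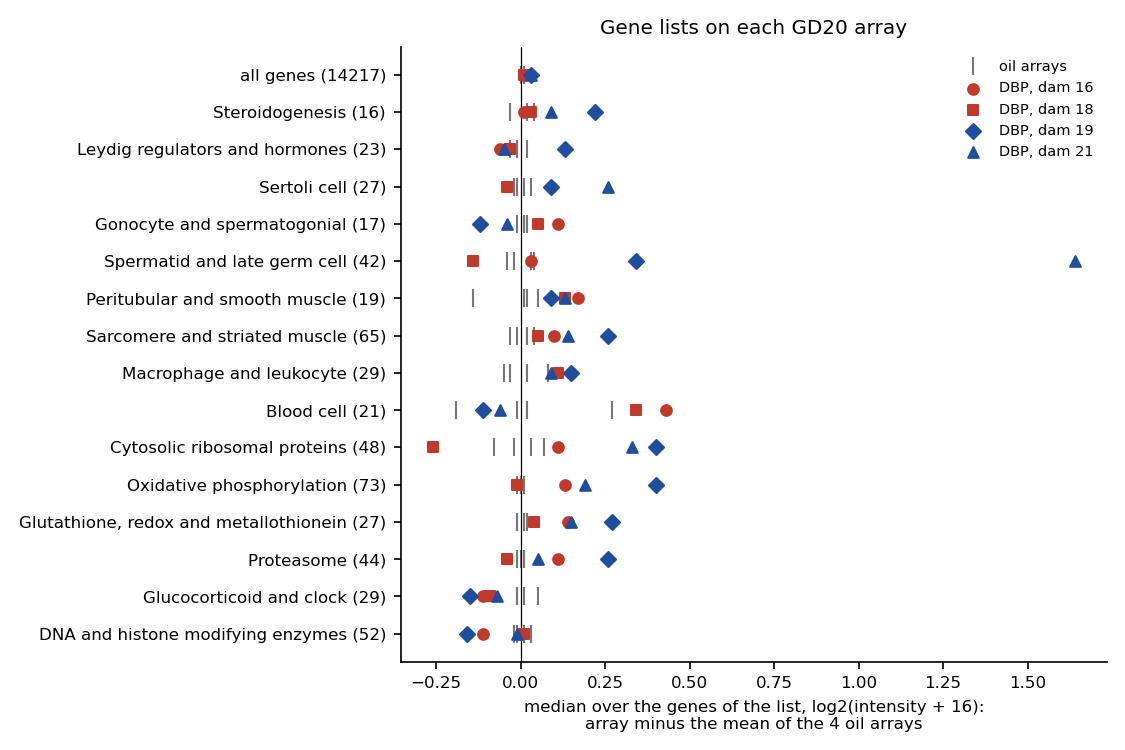
For each list of genes (number measured in brackets), the median over its genes of an array's log2 value minus the mean of the 4 oil arrays, with grey ticks for oil arrays, red marks for DBP dams 16 and 18 and blue marks for dams 19 and 21. The spermatid list stands at 1.64 on dam 21 and the ribosomal list at 0.40 and 0.33 on dams 19 and 21 against -0.26 on dam 18, while the medians over all genes on the DBP arrays lie between 0.01 and 0.03.

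Among growth factor pathways, single members passed and no list moved as a whole beyond a median of 0.06 in size. Grb14, an adaptor that inhibits the insulin receptor, was at 672, 632, 596 and 625 after oil and at 1166, 897, 953 and 1295 after DBP, a rise of 0.74 ± 0.11 (adjusted p = 0.0121). It was the only 1 of 31 insulin and IGF genes to pass, and it lost its call in 3 of the 8 fits without 1 array. Of 27 retinoid genes 1 fell. Crabp2, which carries retinoic acid to its receptor, was at 3840, 3465, 3619 and 3719 after oil and at 2858, 2155, 2689 and 2148 after DBP, with no overlap and with dams 18 and 21 the lowest. Its difference was -0.58 ± 0.09 (adjusted p = 0.0246), and the retinoic acid synthesis enzyme Aldh1a3 was at -0.48 ± 0.13 (adjusted p = 0.169). By the brightest probe set of each gene, the other growth factor lists had no call in the limma fit. With the median-ranked probe set instead, 1 gene of the EGF, PDGF, VEGF and KIT list was called lower. The lists were 14 hedgehog, 46 TGF-beta, activin and BMP, 48 Wnt, 28 Notch, 33 FGF and 34 EGF, PDGF, VEGF and KIT genes. Their smallest p values were those of Gli1, the transcription factor and target of hedgehog signals (-0.20 ± 0.08, adjusted p = 0.379), Inhbb as above with Smad7 (-0.34 ± 0.09), Tcf7 (-0.32 ± 0.09), Notch1 (-0.39 ± 0.12), Etv4 (0.48 ± 0.11) and Pdgfa (-0.32 ± 0.08). At an unadjusted p under 0.05, higher and lower members numbered 0 and 1 for hedgehog, 2 and 3 for TGF-beta, 1 and 6 for Wnt, 0 and 2 for Notch, 5 and 3 for FGF and 3 and 3 for EGF and the related factors. Over all genes 1063 were higher and 804 lower at that p, 13.1% together.

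Immediate early genes, which respond within an hour or so to many stimuli, went both ways. Nr4a1 rose, as above, and Gadd45g, a stress-inducible gene that also takes part in male sex determination, fell from 575, 545, 571 and 568 after oil to 340, 354, 381 and 253 after DBP. The oil arrays were nearly equal and dam 21 was the lowest, with a difference of -0.75 ± 0.11 (adjusted p = 0.0167). Of the 36 measured genes of the list the other 34 did not pass. Fos, a subunit of AP-1, was at 66.2 to 92.3 after oil and 97.8 to 118 after DBP (0.43 ± 0.18, adjusted p = 0.363), and Egr1, a zinc finger factor, overlapped (-0.10 ± 0.11). Of 39 cytokines and chemokines 0 passed, led by Il18 (0.55 ± 0.12, adjusted p = 0.0798), and of 20 prostaglandin genes 0 passed, led by Hpgd, which inactivates prostaglandins (0.52 ± 0.11, adjusted p = 0.0697).

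Ion channels and membrane transport included 4 falls. Kcnh1, a voltage-gated potassium channel, was at 1754 to 1834 after oil and 1259 to 1431 after DBP (-0.41 ± 0.06, adjusted p = 0.0148). Cacna1h, a T-type calcium channel, was at 383 to 515 after oil and 221 to 335 after DBP (-0.70 ± 0.13), although its other probe set had the opposite sign. Both belong to a list of 93 voltage-gated channel genes of which 2 fell, 0 rose and the median was 0.04. Cacna1h was highest on dam 5 among the oil arrays and on dam 21 among the DBP arrays. Ano1, a chloride channel opened by calcium, fell by 0.60 ± 0.10 and Slc12a7, a potassium chloride cotransporter, by 0.40 ± 0.08. The calls of Kcnh1, Cacna1h, Ano1 and Slc12a7 were lost in 4, 7, 6 and 7 of the 8 fits without 1 array.

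In metabolism, single enzymes of detoxification, fatty acids and amino acids rose, while most members of these lists did not pass and the list medians were between -0.03 and 0.07. Akr1b8, an aldo-keto reductase that reduces aldehydes, was at 2062, 1976, 2017 and 1960 after oil and at 3753, 3665, 3854 and 3035 after DBP. It differed by 0.83 ± 0.08 (adjusted p = 0.00132), with dam 21 the lowest DBP array, and by 0.88 without dams 19 and 21. Cyp1b1, a cytochrome P450 of steroids and xenobiotics, rose by 0.36 ± 0.06, from 1996 to 2085 on the oil arrays to 2521 to 2864 on the DBP arrays. Of 49 xenobiotic and NRF2 genes these 2 rose and 0 fell, with a median of 0.05, and Hmox1, the haem oxygenase, was at -0.45 ± 0.09 (adjusted p = 0.0561).
Hao2, a peroxisomal hydroxy acid oxidase, was at 436, 348, 430 and 460 after oil and at 781, 912, 664 and 803 after DBP (0.89 ± 0.11, adjusted p = 0.0048). Acsl4, an acyl-CoA synthetase that prefers arachidonic acid, was at 1825 to 1911 after oil and at 3150, 3227, 2512 and 2802 after DBP, with dams 16 and 18 the highest (0.63 ± 0.08, adjusted p = 0.00518). They were the 2 called genes among 51 of fatty acid oxidation and PPAR targets, a list with a median of 0.01, and Fads2, the delta-6 desaturase, was the only 1 of 23 fatty acid synthesis genes (0.42 ± 0.08).
Ass1, the argininosuccinate synthase, was at 569, 465, 599 and 458 after oil and at 730, 1088, 1162 and 811 after DBP (0.82 ± 0.14, adjusted p = 0.0342). Got1, the cytosolic aspartate aminotransferase, rose by 0.68 ± 0.10. Of 53 genes of amino acid transport and one-carbon metabolism these 2 rose and 0 fell. At an unadjusted p under 0.05, 5 were higher and 9 lower (26.4%, against 13.1% of all genes). A difference above 0 was seen in 45.3%, against 54.1% of all genes. In that list Shmt1, a serine hydroxymethyltransferase, was at -0.45 ± 0.09 (adjusted p = 0.0544). Gatm, which makes the creatine precursor guanidinoacetate and is on the imprinted list, rose by 0.73 ± 0.09, from 951 to 1100 to 1532 to 1972, while its other probe set had the opposite sign. Akr1b8, Hao2, Acsl4 and Gatm kept their calls in all fits without 1 array, and Cyp1b1, Fads2, Ass1 and Got1 lost theirs in 6, 8, 6 and 4 of these 8 fits.

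Single lipoprotein, lysosomal and cell cycle genes were among the falls. Naglu, the lysosomal enzyme that removes N-acetylglucosamine from heparan sulfate, was at 1023, 1085, 1250 and 1205 after oil and at 759, 707, 678 and 685 after DBP. The DBP arrays were close to each other, and the difference was -0.67 ± 0.08 (adjusted p = 0.0033), the only call among 37 lysosomal genes. At an unadjusted p under 0.05, 5 of these 37 were higher and 1 lower (16.2%, against 13.1% of all genes). Nceh1, a cholesteryl ester hydrolase, was at 439, 399, 410 and 400 after oil and at 317, 275, 240 and 235 after DBP (-0.61 ± 0.11, adjusted p = 0.0382). Lrp8, an apolipoprotein E receptor, was at 1361 to 1559 after oil and at 902 to 1227 after DBP (-0.48 ± 0.09, adjusted p = 0.045). In both genes the lowest DBP arrays were those of dams 19 and 21, and without them Nceh1 was at -0.46 (adjusted p = 0.0869) and Lrp8 at -0.36 (adjusted p = 0.117). Of 29 cholesterol genes these 2 fell and 0 rose, and the synthesis enzyme Idi1 was at 0.52 ± 0.12 (adjusted p = 0.0972). Ccnd2, the cyclin D2 that drives the G1 phase, was at 7763, 7593, 8116 and 7432 after oil and at 4874, 2692, 5046 and 4788 after DBP. Dam 18 was far below the other 3 DBP arrays, and the difference was -0.87 ± 0.16 (adjusted p = 0.045). It was the only call among 32 G1 cyclins and inhibitors, and 0 of 44 replication and mitosis genes passed, led by Cdt1, a replication licensing factor (-0.26 ± 0.07). Naglu kept its call in each fit without 1 array, and Nceh1, Lrp8 and Ccnd2 lost theirs in 7, 7 and 7.

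The largest falls were in 2 dim genes. B3galt5, a galactosyltransferase of glycan chains, was at 95.0, 72.3, 82.4 and 79.4 after oil and at 23.8, 9.05, 9.47 and 6.79 after DBP. Dam 16 was the highest of the DBP arrays and still far below the lowest oil array, and the difference was -1.83 ± 0.24 (adjusted p = 0.00644). This call held in all 20 alternatives that tested the gene. Dennd6b, an exchange factor for Rab proteins, was at 100, 158, 138 and 113 after oil and at 50.7, 47.1, 20.9 and 49.1 after DBP (-1.33 ± 0.24, adjusted p = 0.0396), and lost its call in 7 of the 8 fits without 1 array.

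**Figure D4:**
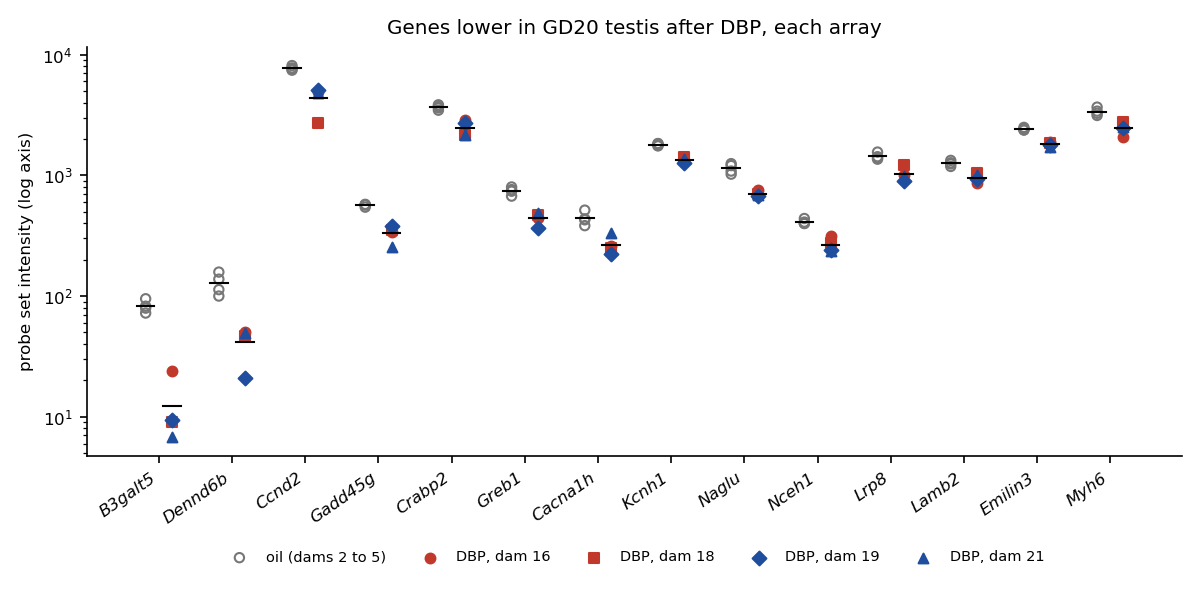
Intensity of 14 genes called lower after DBP, on a log axis, with open grey circles for the 4 oil arrays, filled marks for the DBP arrays (red for dams 16 and 18, blue for dams 19 and 21) and a bar at each mean. All DBP marks lie below all oil circles for each gene; for Ccnd2 dam 18 is at 2692 and the other DBP arrays at 4788 to 5046.

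Some genes of the matrix and of chromatin fell. Lamb2, a laminin of basement membranes, fell by 0.39 ± 0.07, the only call among 94 collagen, laminin and integrin genes (median -0.01), and the matrix protein Emilin3 fell from 2375 to 2496 on oil arrays to 1729 to 1874 on DBP arrays (-0.42 ± 0.06, adjusted p = 0.00885). Rcor1, the CoREST corepressor, was at 557, 490, 606 and 522 after oil and at 406, 336, 277 and 317 after DBP, with dam 19 the lowest (-0.69 ± 0.12, adjusted p = 0.0291, or -0.53 and adjusted p = 0.074 without dams 19 and 21). Of 52 DNA and histone modifying enzymes 1 fell and 0 rose. At an unadjusted p under 0.05, 9 were lower and 1 higher (19.2%, against 13.1% of all genes), and 30.8% had a difference above 0, against 54.1% of all genes. Greb1, an oestrogen-responsive gene, was at 801, 762, 739 and 673 after oil and at 442, 473, 363 and 490 after DBP (-0.74 ± 0.10, adjusted p = 0.00826), while its other probe set had the opposite sign. Rreb1, a zinc finger repressor, was at 1989, 2251, 2340 and 2147 after oil and at 1131, 1666, 1226 and 1527 after DBP (-0.66 ± 0.11, adjusted p = 0.0291). Neither group of arrays overlapped with the other in these genes. The regulators Zmiz1 (-0.46 ± 0.07), Setd5 (-0.46 ± 0.09) and Nol4l (-0.54 ± 0.07) also fell. Of 239 genes named only by zinc finger family numbers (Zfp, Znf, Zbtb and the like), a list that leaves out Rreb1, 0 passed by their brightest probe sets. At an unadjusted p under 0.05, 5 were higher and 21 lower (10.9%, against 13.1% of all genes). A dimmer probe set of Zfp61 was called (-0.85 ± 0.15, limma, adjusted p = 0.032), and its brightest was at -0.37. Of 29 glucocorticoid and clock genes 0 passed, and the median was -0.10. At an unadjusted p under 0.05, 2 were higher and 8 lower (34.5%). The medians of that list were -0.11, -0.09, -0.15 and -0.07 on the DBP arrays, all below the oil arrays (-0.01 to 0.05), and Hsd11b2, which inactivates glucocorticoids, was at -0.49 ± 0.11 (adjusted p = 0.101). Junction proteins of the tubule wall (41 genes), heat shock (17), unfolded protein response (25) and apoptosis and p53 genes (39) had 0 calls by their brightest probe sets. They were led by Gja1, the gap junction protein connexin 43 (-0.37 ± 0.08, adjusted p = 0.102), Hspe1 (0.41 ± 0.11), Dnajc3 (0.28 ± 0.08) and Bcl2l11, the death factor Bim (-0.33 ± 0.07, adjusted p = 0.062). Of 91 proteases and inhibitors Testin alone passed.

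The remaining called genes belong to no list. Those that rose were Smlr1, Lrp2bp, Olfml2b, Trim16, Cd55 (an inhibitor of complement), Rerg (a Ras-like growth inhibitor), Dapk2 (a kinase), Tmem178a, Sgk3 (a kinase of the AKT group), Nutf2 (a nuclear import factor), Rab20, Gde1 (a lipid phosphodiesterase), Eola2, Mpzl2, Schip1, Bex4, Stom (stomatin), Arpc4 (an actin nucleator), Smim3, Atp6v0b (a proton pump subunit) and Cited2 (a coregulator), with differences from 0.37 to 1.23. Lrp2bp was at 3.87, 0.982, 2.11 and 3.13 after oil and at 38.3, 27.1, 21.7 and 23.8 after DBP (1.23 ± 0.22, adjusted p = 0.0359), so its level after oil lay under the pseudocount of 16. Smlr1 was at 18.7, 26.9, 28.1 and 22.3 after oil and at 82.6, 69.5, 64.4 and 89.5 after DBP (1.21 ± 0.21, adjusted p = 0.0334). Both were dim and did not overlap, and without dams 19 and 21 Lrp2bp was at 1.39 (adjusted p = 0.0525) and Smlr1 at 1.20 (adjusted p = 0.0753). The 2 further rises are uncertain, since their names mark them as near copies of other genes. Chchd4l1 was at 438, 486, 462 and 525 after oil and at 876, 826, 890 and 1205 after DBP (0.95 ± 0.11), and the pseudogene Srsf7-ps4 rose by 0.62 ± 0.09. Those that fell were Steap2 (a metalloreductase), Cdca7, Tmem86a, Trim2, Mapkapk3 (a kinase), Sirpa (an inhibitory receptor), Ddx6 (an RNA helicase), Nav1, Secisbp2l, Spaca6, Entpd5, Aldh1b1 (a mitochondrial aldehyde dehydrogenase), Mical3 and Bsn (the presynaptic protein bassoon), with differences from -0.74 to -0.36, and 1 predicted locus. Bsn was at 548, 563, 575 and 619 after oil and at 298, 399, 353 and 315 after DBP (-0.74 ± 0.10, adjusted p = 0.00826). Mical3 was at 431, 470, 504 and 438 after oil and at 313, 270, 254 and 306 after DBP (-0.66 ± 0.10, adjusted p = 0.0158). In both the groups lay apart. Mical3, Trim2, Dapk2 and Setd5 each had 2 other probe sets, of which only 1 had the same sign and 0 were called. In 13 more genes, Zfp61 above among them, a dimmer probe set was called while the brightest was not. Of the rest 4 are named here after their values were seen. They are Gnas (-1.09 ± 0.14, brightest probe set 0.05), Smad6 (-0.65 ± 0.13, brightest 0.21), Tgfa (-0.64 ± 0.11, brightest -0.10) and Mcl1 (0.41 ± 0.08, brightest 0.01). Another 39 called probe sets have no single gene symbol.

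Across the 80 called genes, 17 kept their call in every fit that left out 1 array and 63 lost it in at least 1. The 17 are Stc1, Smpx, Gnrhr, Chchd4l1, Hao2, Akr1b8, Ramp1, Cd55, Rerg, Gatm, Acsl4, Tmem178a, Gde1, Naglu, Greb1, B3galt5 and 1 predicted locus. Without 1 oil array 27, 23, 21 or 18 genes stayed called (dams 2, 3, 4 and 5), and without 1 DBP array 40, 64, 47 or 49 (dams 16, 18, 19 and 21). The moderated variance of the limma fit followed intensity, and without that trend 3 of the 80 were called. Without dams 19 and 21 a total of 49 of the 80 stayed called. Those lost include Testin, Nppc, Mybpc3, Nceh1, Lrp8 and Rcor1, with the values given above. Others had lost calls with differences near those over all arrays, such as Rreb1 (-0.66 in both), Myh6 (-0.48 without, -0.46 with), Lamb2 (-0.40 and -0.39), Ano1 (-0.58 and -0.60) and Fads2 (0.39 and 0.42). Between these were Ass1 (0.76 and 0.82), Slc12a7 (-0.34 and -0.40) and Dennd6b (-1.13 and -1.33). That fit has 2 DBP arrays in place of 4. A list of 53 genes named in earlier work on fetal phthalate exposure held 6 of the rises and 2 of the falls, while over all genes 0.309% rose and 0.253% fell. It was written with results of these data known, so these counts are no measure of agreement with that work. Its rises were Stc1, Smpx, Testin, Nr4a1, Grb14 and Cyp1b1, its falls Crabp2 and Ccnd2. Without dams 19 and 21 the list had 5 higher and 4 lower calls. For 4 genes that were to be reported, Sox9, Ddx4, Pou5f1 and Ptch1, no value is given here.

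Genes of energy metabolism and protein synthesis had levels that varied among the DBP arrays. Of 73 oxidative phosphorylation genes 0 passed, and 31 were higher and 0 lower at an unadjusted p under 0.05 (42.5%, against 13.1% of all genes). A difference above 0 was seen in 95.9%, against 54.1% of all genes, and the list's median was 0.17. The median was 0.13 on dam 16, -0.01 on dam 18, 0.40 on dam 19 and 0.19 on dam 21, and -0.01 to 0.01 on the oil arrays. Without dams 19 and 21 it was 0.07 with 0 calls, and with those 2 as the only DBP arrays 23 members were called. Ndufb11 of complex I (0.41 ± 0.10, adjusted p = 0.112), Cox5b of complex IV (0.34 ± 0.09), Uqcrq of complex III and Ndufs8 led the list. Among 48 cytosolic ribosomal proteins 0 passed and the median was 0.15, made up of 0.11, -0.26, 0.40 and 0.33 on dams 16, 18, 19 and 21. It was -0.07 without dams 19 and 21, and 32 members were called with those 2 as the only DBP arrays. The 27 glutathione, redox and metallothionein genes had a median of 0.15, with 8 higher and 0 lower at an unadjusted p under 0.05 (29.6%). They were led by Gpx4, a lipid peroxide reductase (0.34 ± 0.07, adjusted p = 0.084), and Prdx6, a peroxiredoxin (0.32 ± 0.07). Proteasome genes (44, median 0.08) and the citric acid cycle (24, 0.07) had 0 calls, and so did glycolysis and lactate genes (41, 0.03), led by Pfkp (0.29 ± 0.07, adjusted p = 0.106).

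Dams 19 and 21 stood apart in other measures too. Principal component 1 carried 30.4% of the variance, and on it they lay at -22.4 and -27.9, and the other 6 arrays between 0.4 and 11.6. Dams 16 and 18 stood out on the second (19.7%), at -17.5 and -21.2. The GAPDH 3′ control probe set was at 18116 and 15758 on dams 19 and 21 and at 12800 to 14189 on the other arrays, and beta-actin 3′ at 27080 and 26549 against 18468 to 22539. The ratio of 3′ to 5′ signal for GAPDH was 0.947 to 1.06 after oil and 1.03 to 1.10 after DBP. For beta-actin it was 1.74 to 1.92 after oil and 1.75, 1.51, 1.85 and 1.84 after DBP. For hexokinase it was highest on dams 19 and 21, at 2.94 and 3.42, and 2.22 to 2.91 on the other 6 arrays. RNA integrity numbers recorded in the labels averaged 8.70 after DBP and 8.75 after oil (exact permutation test, two-sided, p = 0.657), and absorbance ratios 1.978 and 1.998 (exact p = 0.343). The absorbance ratios were 1.96, 1.95, 1.99 and 2.01 on DBP dams 16, 18, 19 and 21, and 1.99 to 2.01 on the oil arrays. The smallest p that 4 against 4 allows is 0.0286. With only dams 19 and 21 against the oil arrays 921 probe sets were called, and with only dams 16 and 18 the number was 166. Of the 80 called genes 73 were called in the first of these fits, 49 in the second and 37 with spike-in class as a covariate. The covariate fit has the same differences as the second fit and other SEs. The part of these array differences in the results was not tested.

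Late germ cell transcripts, which a fetal testis is not known to make in number, were seen on the array of dam 21. Prm1, a protamine that packs sperm DNA, was at 26.5, 59.7, 60.1 and 37.9 after oil and at 27.5, 31.5, 116 and 1469 after DBP. Tnp1, a transition protein of spermatids, was at 85.2 to 121 after oil and at 134, 127, 171 and 843 after DBP. Both were far higher on dam 21 than elsewhere, and neither difference passed (1.23 ± 0.86 and 1.09 ± 0.45). Of 42 measured spermatid and late germ cell genes 35 were highest on dam 21, and the list's median was 1.64 on that array, 0.34 on dam 19, 0.03 on dam 16 and -0.14 on dam 18. Crisp2, an acrosomal protein, was at 1891 on dam 21 and Ldhc, the lactate dehydrogenase of germ cells, at 1305, against oil means of 212 and 159. No member was called, the median over the 4 DBP arrays was 0.42, and it was 0.10 without dam 21. The summed level of the list was 4793 to 5027 on oil arrays, 4841, 4534 and 5605 on dams 16, 18 and 19, and 16357 on dam 21.
The excess on dam 21 was also set against the level in the testis of 35-day-old rats given oil in utero and after birth (oil-oil). Over 85 genes that were under 50 on average in fetal oil and at least 2000 in the oil-oil group at 35 days, the median excess was 2.25% of the later level on dam 21 (quartiles 1.8% and 2.6%) and 0.172% on dam 19. On the other 6 arrays it lay between -0.0232% and 0.00427%. For Prm1 the excess was 4.05% of the later mean of 35180 and for Crisp2 5.74% of 29443. The cause of this signal was not tested, and none of the 80 called genes is on the late germ cell list. That list does not hold all genes that are high at 35 days. Among called rises, Smpx had a mean of 4443 in the oil-oil group and 195 in fetal oil, and Hao2 of 3317 and 419. Of 38 called rises with a fetal oil mean of at least 200, 3 (7.89%) were at least 4 times higher at 35 days. At least 4 times lower were 9 (23.7%). Over all genes at that level the shares were 4.69% and 15.1%. Smpx, at 195 in fetal oil, lay just under the limit of 200 and is not among the 38. Neither is Lrp2bp, at 2.52 in fetal oil and 49.1 in the oil-oil group at 35 days.

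**Figure D5:**
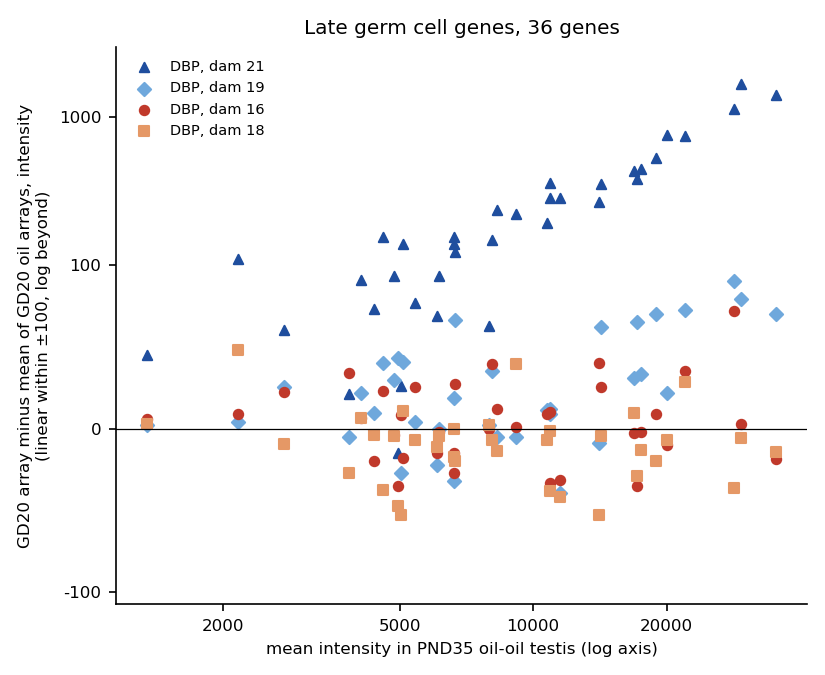
For 36 late germ cell genes, the intensity on each DBP array at GD20 minus the mean of the 4 GD20 oil arrays, against the mean intensity in the oil-oil testis at 35 days. Dam 21 rises with the later level and reaches 1679 for Crisp2, with a median excess of 2.38% of that level, while dam 19 has a median of 0.194% and dams 16 and 18 scatter around 0.

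The same genes at 35 days are set beside the fetal values for reference. There, pups of oil dams got 500 mg/kg DBP or oil once and were killed 6 hours later, and a second contrast compared pups of DBP dams with pups of oil dams, both given oil. The contrasts share the oil-oil arrays, and dose, duration and age differ from GD20, so no difference between ages was tested. After the single dose 11 of the 44 genes that rose at GD20 were higher and 2 lower, against 6.26% and 5.91% of all genes. Testin went from 159 ± 82.2 to 2438 ± 1180 (log2 3.73 ± 0.36, limma, adjusted p = 4.38e-07), Rab20 from 650 to 3437 and Nr4a1 from 175 to 583. Hao2 (-1.43 ± 0.30) and Prkar2b (-0.66 ± 0.16) fell there. Of the 36 genes that fell at GD20, 4 were lower, among them Lrp8 (-1.53 ± 0.29), and 4 were higher, among them Gadd45g, from 205 to 746 (1.71 ± 0.16). In the second contrast 0 of the 80 genes and 0% of all genes were called in either direction by limma. An unadjusted p under 0.05 was found for 2 of the higher genes (4.55%) and 7 of the lower genes (19.4%), against 912 of all 14217 (6.41%). All of these went opposite to their fetal direction. The 2 higher genes were Smpx (-0.25 ± 0.11) and Acsl4 (-0.25 ± 0.12). The 7 lower genes were above oil-oil there, such as Ddx6 (0.40 ± 0.11) and Setd5 (0.35 ± 0.10).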

How the data were processed

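Each of the 8 fetal testis samples gave 1 Affymetrix Rat230_2 array. The deposited values are intensity per probe set on a linear scale, made with GCOS 1.0 per the submitters' processing notes, and the summarization algorithm is not named there. Each deposited array has a 2% trimmed mean of 500.14 to 500.15, so total signal is equal by construction, and medians were 165 to 175.1. From the deposited intensity, log2(intensity + 16) was computed for 31042 probe sets, after 57 manufacturer controls were left out. On each array 12.1% to 13.3% of probe sets lay below the pseudocount. The main test was limma's (version 3.58.1, R 4.3.3; lmFit and eBayes with an intensity trend, no covariate, Benjamini-Hochberg over all probe sets, threshold 0.05). The number of arrays, 4 a group, limits the precision, and p-values measure the spread between these arrays. The probe set with the highest mean stands for a gene. Probe sets were named from GEO's platform annotation: 20826 have 1 symbol, 436 several and 9780 none. Tests were checked on simulated data.

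Genes are named by this rule: all called genes with a symbol that is not a predicted locus, array values for the 12 largest changes each way, the called or otherwise the leading members of each list, and a fixed set of testis genes. The members and lists were chosen with earlier results of these data known. Alternatives were 3 other scalings, 2 other pseudocounts, a filter on dim probe sets, no trend, array weights, RNA integrity or spike-in class as a covariate, other sets of arrays, all 24 arrays in 1 fit and each array left out. Added after seeing the data were the gene lists with spike-in class, with median centring and with dams 19 and 21 as the only DBP arrays. Promoters are from RefSeq, GRCr8.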

Additional observations from a re-analysis of the deposited data

Results flagged for a closer look

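In 99 genes named in the text, each group of 4 arrays was examined for 1 array far from the other 3. Of these 198 groups 14 were flagged, and chance flags about 1 in 20 groups. The DBP group held 10 of the 14, with 4 on dam 21 and 2 each on dams 16, 18 and 19.

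Late germ cell transcripts gave the widest gaps. Prm1 was at 1469 on dam 21 and at 27.5 to 116 on the other DBP arrays, and Tnp1 at 843 against 127 to 171. Without that array the difference between DBP and oil was 0.10 for Prm1, from 1.23 with it, and 0.48 for Tnp1, from 1.09, on the log2 scale.

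Among called genes, dam 21 was also apart for Chchd4l1 (1205 against 826 to 890) and Rerg (1201 against 889 to 931), in the direction of the rise. Dam 18 was apart for Ccnd2, at 2692 against 4788 to 5046, in the direction of the fall, and for Entpd5, at 571 against 466 to 484, toward the oil arrays. Dam 16 was at 23.8 for B3galt5 against 6.79 to 9.47, toward the oil arrays, and at 1960 for Zmiz1 against 2271 to 2304, away from them. Dam 19 was at 20.9 for Dennd6b against 47.1 to 50.7. Cyp17a1, which was not called, was at 19058 on dam 19 against 14871 to 15463.

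Among the oil arrays, dam 5 was at 2804 for Gde1 against 2998 to 3024, dam 3 at 1442 for Steap2 against 1320 to 1337, and dam 4 at 848 for Mapkapk3 against 896 to 905. Dam 2, the pooled array, was at 2196 for Acta2 against 2752 to 2828. What set these single arrays apart was not tested.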

How the results depend on the processing

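The 137 called probe sets (65 higher, 72 lower) became 10 (6 higher, 4 lower) without the intensity trend, 921 (466 higher, 455 lower) with dams 19 and 21 as the only DBP arrays and 80 (28 lower) with all 24 arrays in 1 fit. Lower calls were 37 with median centring, 46 with centring on the 75th percentile and 110 with array weights, and higher calls were 40 with spike-in class as a covariate. With each array left out in turn the total ran from 29 (without oil dam 5) to 175 (without DBP dam 18), higher calls from 19 to 85 and lower calls from 10 to 90. Over 21 alternatives 0 of the 80 called genes changed sign, which leaving out arrays could not have brought about, as their groups do not overlap. B3galt5 kept its call throughout, 11 genes lost theirs only without the trend and 37 lost it in 10 or more. Gene list medians moved beyond the spread in 13 of 54 lists with median centring and 12 with dams 19 and 21 as the only DBP arrays. They moved in 9 without both of these arrays and in 9 with spike-in class, whose differences are the same. With another probe set per gene 6 lists moved, and without dam 21 it was 2.

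Signs turned only in genes that were not called. With spike-in class or without dams 19 and 21, which give the same differences, Cyp17a1 was at -0.01, Nr5a1 at -0.11, Amh at -0.13, Kit at 0.08, Prm1 at -0.41 and Hbb at -0.05. With dams 19 and 21 as the only DBP arrays, Star was at -0.23, Cyp11a1 at 0.04, Dhh at 0.02 and Egr1 at 0.09. Quantile normalization gave -0.03 for Cyp17a1 and -0.02 for Amh, and array weights gave -0.03 for Nr5a1. With 1 array left out, Star ran from -0.05 (without DBP dam 18) to 0.17, with -0.03 without dam 16. Cyp17a1 ran from -0.01 (without dam 19) to 0.11, Dhh from -0.16 to 0.06 (without dam 18) and Nr5a1 from -0.07 (without dam 21) to 0.10, with -0.01 without oil dam 2. The cause was not tested.

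No paired analysis was possible because the oil and DBP dams share no replicate number. Scaling by trimmed mean hides any change in total RNA, and dim probe sets near the pseudocount have understated changes.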
